A study of Mus musculus with 11 samples.

Results

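The 37 genes of the mouse mitochondrial chromosome were taken as all genes whose symbol starts with mt-, out of 55487 genes in the count tables. They comprise 13 mRNA genes, 2 rRNA genes and 22 tRNA genes, of which 28 lie on the plus strand of the GRCm38 reference and 9 on the minus strand (mt-Nd6 and 8 tRNA genes). The libraries came from whole hearts of mouse embryos at E14.5, 1 library per heart, of the B6; 129P2 background. The 5 Pde2A-/- hearts (A, B, 14, D and 15) were homozygous for the constitutive tm1Dgen allele of the phosphodiesterase gene Pde2A, so every cell of the embryo carried it, and the 6 Pde2A+/+ hearts (7, 11, 6, 8, H and E) carried no such allele; both came from matings of heterozygous parents. The labels give no treatment and no sex of the embryos. The comparison asks which mitochondrial transcripts differed in level between the genotypes, and on which strand.

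The mitochondrial genome is transcribed from both strands into long precursors, which are cut at the tRNAs that lie between most of the rRNA and mRNA genes. Its mRNAs encode subunits of respiratory complexes I, III, IV and V, and its rRNAs and tRNAs serve translation inside the organelle. The heart is among the tissues richest in mitochondria, and its cardiomyocytes carry most of them.

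Reads on 2 pairs of neighbouring tRNA genes carry the strand results below, so their sequences, as transcribed and read from the GENCODE M21 transcripts, are shown with the anticodon in capitals. The proline gene mt-Tp (chrM:15356-15422, minus strand) and the threonine gene mt-Tt (chrM:15289-15355, plus strand) meet end to end, and the isoleucine gene mt-Ti (chrM:3706-3774, plus strand) and the glutamine gene mt-Tq (chrM:3772-3842, minus strand) overlap.
mt-Tp: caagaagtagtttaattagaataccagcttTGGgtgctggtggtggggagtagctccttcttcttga
mt-Tt: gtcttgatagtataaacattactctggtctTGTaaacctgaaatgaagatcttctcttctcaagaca
mt-Ti: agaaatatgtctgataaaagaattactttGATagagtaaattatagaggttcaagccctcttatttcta
mt-Tq: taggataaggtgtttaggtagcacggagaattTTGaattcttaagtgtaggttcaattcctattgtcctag
Each of these genes is 67 to 71 bases long, so a read can cover a whole gene and its neighbour. The counting assigned a read only when it touched a single gene on the strand considered, and counted a read touching genes of both strands once per strand in the stranded columns but not at all when strand was ignored.

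Libraries held 35865537 to 42835382 counts on the genes' own strand. Pde2a itself had 0 to 2 counts per library in both genotypes, so its counts checked no label. The reason for these low counts was not tested, and they were not taken as the level of Pde2a RNA in either genotype. The 12 cardiomyocyte markers summed to 32803 to 37920 CPM (counts scaled to library size) in Pde2A-/- hearts and 32083 to 41918 CPM in Pde2A+/+ hearts. Liver markers reached 33.4 to 105 CPM in heart D of the Pde2A-/- group and in hearts 11, H and E of the Pde2A+/+ group, against at most 2.03 CPM in the other hearts.

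Counts along the chromosome were uneven in both genotypes. On their own strand 19 of the 37 genes had at least 10 counts over the 11 hearts and were tested: 7 mRNA genes, both rRNA genes and 10 tRNA genes. The other 18 genes, 6 mRNA and 12 tRNA genes, were not tested, and 13 of them had 0 counts. The untested mRNA genes form a block at chrM:7013-10173, namely mt-Co2 and mt-Co3 of cytochrome c oxidase, mt-Atp8 and mt-Atp6 of ATP synthase, and mt-Nd3 and mt-Nd4l of complex I, each with at most 3 counts over all 11 hearts. A read that maps to more than 1 place was not counted, so these counts give no level of the RNA in the heart for genes whose sequence occurs elsewhere. Of all 75-base windows, 99.5% in mt-Co2, 99.5% in mt-Atp6, 99.9% in mt-Co3, 97.8% in mt-Nd3 and 98.7% in mt-Nd4l occur in annotated pseudogenes on chromosome 1 (Gm28661, Gm10925, Gm28437, Gm28438 and Gm10222). In mt-Nd4, 61.5% of windows occur in Gm28439, also on chromosome 1. In mt-Co1, 39.8% of windows are shared, 27.5% with Gm29216 on chromosome 1 and some with Gm13340 on chromosome 2. No window of mt-Nd1, mt-Cytb, mt-Nd6 or either rRNA gene was shared at this length, and mt-Atp8, at 0 counts, matched no other annotated transcript. A read touching more than 1 gene of the same strand was not counted either, which bears on tRNA genes that abut others. The tRNA gene mt-Tv, at 0 counts, lies without a gap between mt-Rnr1 and mt-Rnr2, and none of its 50-base windows was shared. Multimapping reads were 10.9% to 11.6% of reads in Pde2A-/- hearts and 11.6% to 13.2% in Pde2A+/+ hearts, and the part of the mitochondrial genes in these was not tested. A list of 8 genes held 7 of these pseudogenes on chromosome 1 and Gm10221 on chromosome 5, for which no shared window was found. Together they summed to 2.59 ± 0.278 CPM (SD, n = 5) in Pde2A-/- hearts and 2.99 ± 0.402 CPM (SD, n = 6) in Pde2A+/+ hearts, which overlapped. The list leaves out 2 pseudogenes on chromosome 2 with more counts, Gm13340 (965 own-strand counts) and Gm13341 (817 own-strand counts). In Gm13341, 22.6% of the 75-base windows of mt-Co2 occur.

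**Figure D1:**
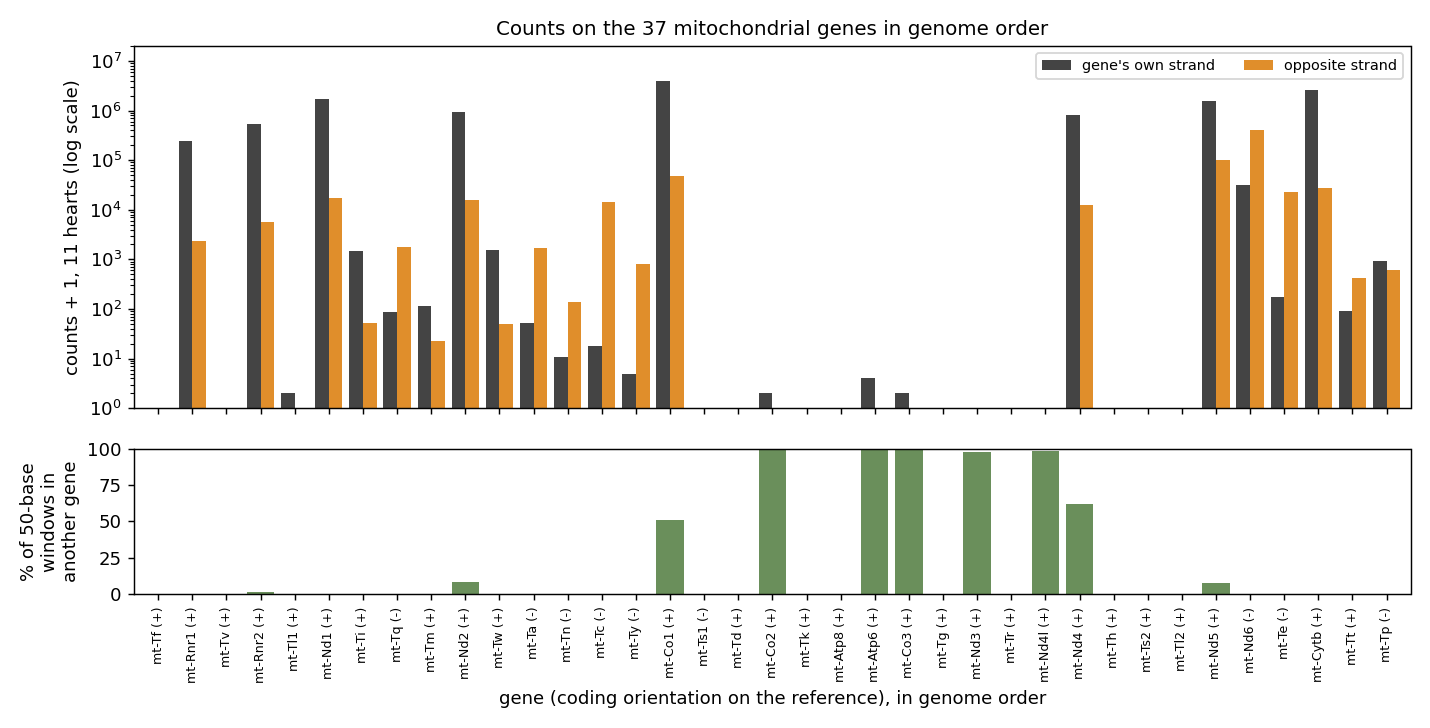
Counts plus 1 over the 11 hearts on a log axis for the 37 mitochondrial genes in genome order, on the gene's own strand (dark) and the opposite strand (orange), with the percentage of 50-base windows that occur in another annotated gene below. The block from mt-Co2 to mt-Nd4l is at 0 to 3 counts, and most of its mRNA genes share nearly all windows.

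Together the mitochondrial genes took a lower mean share of gene counts in Pde2A-/- hearts, at 2.49% ± 0.552 (SD, n = 5) against 3.25% ± 0.176 (SD, n = 6), but the genotypes overlapped. The share was 3.21% in heart A, 2.91% in B, 2.30% in 14, 1.94% in D and 2.07% in 15, and ranged from 3.11% to 3.60% with a median of 3.19% in Pde2A+/+ hearts. Heart A thus lay inside the Pde2A+/+ range, B just below it, and 14, D and 15 well below it. The mRNA genes made up nearly all of the share and of the difference, with 2.31% ± 0.541 against 3.06% ± 0.166. The rRNA genes took 0.177% ± 0.0170 and 0.191% ± 0.0226, and the tRNA genes 0.000895% ± 0.000252 and 0.00119% ± 0.000323, with overlap in both classes. No test was made of these sums. In whole hearts, fewer cells rich in mitochondria and less mitochondrial RNA per cell cannot be told apart.

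**Figure D2:**
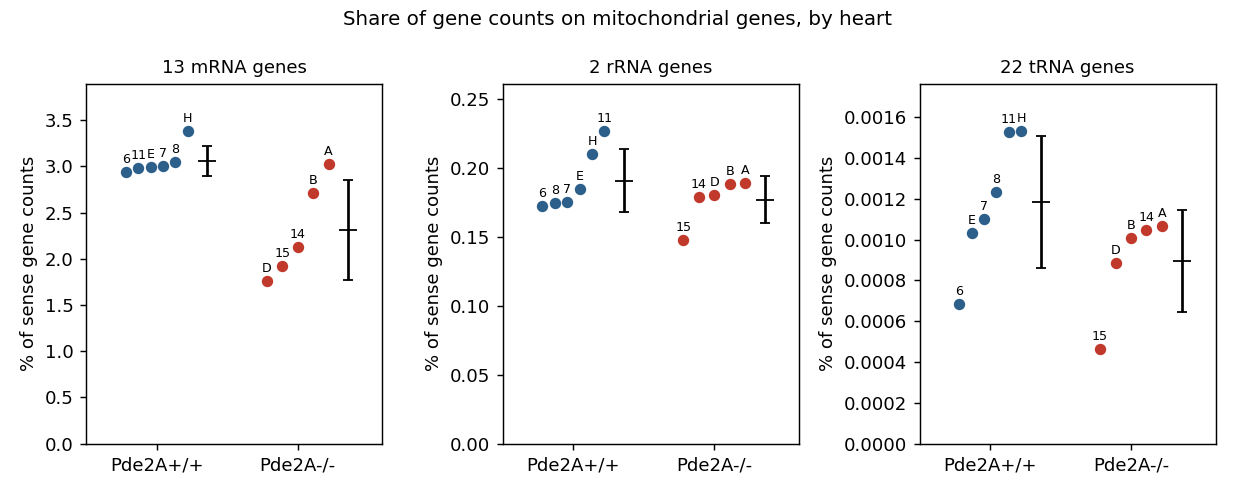
Percentage of sense gene counts on mitochondrial mRNA, rRNA and tRNA genes in each heart (points with the replicate name; bars, mean ± SD; n = 6 Pde2A+/+ and 5 Pde2A-/-). Hearts B, 14, D and 15 lie below every Pde2A+/+ heart for the mRNA genes, with heart A inside their range, and the genotypes overlap in all 3 classes.

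Per kilobase of full gene length in Pde2A+/+ hearts, mt-Cytb and mt-Nd1, which share no 75-base window with another annotated gene, had 6212 ± 425 and 5092 ± 341 CPM per kb (SD, n = 6). They were followed by mt-Nd2 (2468 ± 166) and mt-Nd5 (2220.0 ± 188 CPM per kb), with 5.71% and 1.66% of windows shared. The values of mt-Co1 (6254 ± 369) and mt-Nd4 (1573 ± 91.3 CPM per kb) are given outside this order, since the shared windows of these genes count in the length but may not yield counted reads. The rRNAs stood at 867 ± 106 for mt-Rnr2 and 552 ± 56.5 CPM per kb for mt-Rnr1, below mt-Cytb, mt-Nd1, mt-Nd2 and mt-Nd5, in libraries made from mRNA. Among the tested tRNA genes, counts per kilobase were highest for mt-Tw (59.2 ± 15.7), mt-Tp (47.4 ± 16.5) and mt-Ti (44.5 ± 16.2 CPM per kb), which did not differ beyond their spread. These values are not levels of the tRNAs, since reads that touched a neighbour of the same strand were not counted. With strand ignored, mt-Tw and mt-Ti kept 0 and 3 counts over all hearts, so nearly all their counted reads also touched a gene of the other strand.

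In Pde2A-/- hearts, 6 members were lower and 0 were higher by the edgeR quasi-likelihood test, with p adjusted by Benjamini-Hochberg over 24177 genes. Over all genes, 5.67% were called lower and 8.93% higher. With a fold change of at least 2 also required, mt-Tp and mt-Tt remained lower, against 0.372% of all genes lower and 2.21% higher. The lower members were 4 of the 7 tested mRNA genes (mt-Nd1, mt-Nd2, mt-Nd4 and mt-Cytb) and 2 of the 10 tested tRNA genes (mt-Tp and mt-Tt). Of the 13 members with an unadjusted p under 0.05, mt-Rnr1 alone was higher, and DESeq2 called 1 member higher, mt-Rnr1. The log2 fold change was negative for 16 members and positive for 3, with a median of -0.32 against -0.02 over all genes. Since neighbouring genes share precursors and reads, the members are not independent of each other.

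Among the complex I mRNAs, mt-Nd1 had 4450.3, 4231, 2641, 1869 and 2101 CPM in Pde2A-/- hearts A, B, 14, D and 15, and 4527 to 5392 CPM (median 4809) in Pde2A+/+ hearts. All 5 Pde2A-/- hearts lay below every Pde2A+/+ heart, hearts A and B narrowly. The log2 fold change was -0.67 ± 0.20 (SE, adjusted p = 0.0397). For comparison, 3.11% of all genes tested had every Pde2A-/- heart below every Pde2A+/+ heart.

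The neighbouring mt-Nd2, another complex I subunit, had 2349, 2147, 1405, 1093 and 1152 CPM in the same order of hearts against 2390.1 to 2891 CPM (median 2512). The genotypes again did not overlap, and the log2 fold change was -0.65 ± 0.18 (SE, adjusted p = 0.0301). For mt-Nd4, also of complex I, the values were 2100.4, 1819, 1315, 1110.0 and 1284 CPM against 2057 to 2408 CPM (median 2128). Heart A lay inside the Pde2A+/+ range and the other 4 below it, with a log2 fold change of -0.51 ± 0.14 (SE, adjusted p = 0.0287).

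The complex III mRNA mt-Cytb, cytochrome b, had 6878, 6024, 4223, 3391 and 3621 CPM in Pde2A-/- hearts and 6787 to 8074 CPM (median 6911) in Pde2A+/+ hearts. Heart A was again inside the Pde2A+/+ range, and the log2 fold change was -0.56 ± 0.16 (SE, adjusted p = 0.0360). These 4 mRNA calls rested on few hearts: none of them passed once heart 14, D or 15 of the Pde2A-/- group, or heart 8 or H of the Pde2A+/+ group, was left out. The mt-Nd1 call was also lost without heart 7, 11, 6 or E of the Pde2A+/+ group, the mt-Cytb call without heart 7, 6 or E, and the mt-Nd2 call without heart 6. Each log2 fold change stayed negative, between -0.84 and -0.41.

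The complex IV mRNA mt-Co1, the member with most counts, had 9608, 9158, 8632, 7563 and 8904 CPM in Pde2A-/- hearts and 9190.3 to 10748 CPM (median 9577) in Pde2A+/+ hearts. Its log2 fold change of -0.14 ± 0.06 (SE, adjusted p = 0.160) did not pass. The complex I mRNAs mt-Nd5 (-0.32 ± 0.14, adjusted p = 0.132) and mt-Nd6 (-0.29 ± 0.12, adjusted p = 0.119) did not pass either, and in both genes hearts 14, D and 15 lay below every Pde2A+/+ heart.

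The rRNA log2 fold changes had opposite signs, and neither passed. The large-subunit rRNA mt-Rnr2 had 1296, 1298, 1147, 1107 and 915 CPM in Pde2A-/- hearts and 1227 to 1622 CPM (median 1286) in Pde2A+/+ hearts, with a log2 fold change of -0.25 ± 0.10 (SE, adjusted p = 0.107). The small-subunit rRNA mt-Rnr1 had 563, 602, 634, 684 and 602 CPM against 470 to 598 CPM (median 518), so that 4 Pde2A-/- hearts lay above every Pde2A+/+ heart. Its log2 fold change was 0.23 ± 0.07 (SE, adjusted p = 0.0531).

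**Figure D3:**
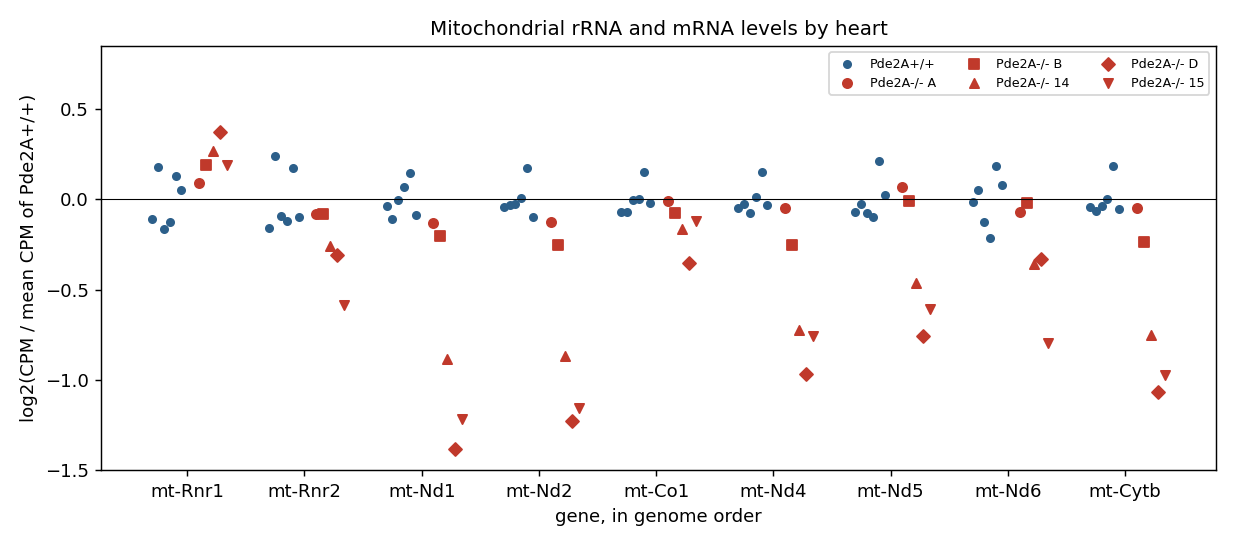
CPM of the rRNA and tested mRNA genes in each heart relative to the mean of the 6 Pde2A+/+ hearts, on the log2 scale (blue, Pde2A+/+; red, 1 symbol per Pde2A-/- heart). Hearts 14, D and 15 are low for mt-Nd1, mt-Nd2, mt-Nd4, mt-Nd5 and mt-Cytb, hearts A and B lie near the Pde2A+/+ hearts, and 4 Pde2A-/- hearts are above every Pde2A+/+ heart for mt-Rnr1.

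Ratios between members within a heart need no scaling between libraries. Counts of mt-Nd1 per count of mt-Co1 were 0.463, 0.462, 0.306, 0.247 and 0.236 in hearts A, B, 14, D and 15, and 0.483 to 0.527 in Pde2A+/+ hearts. Counts of mt-Rnr1 per count of mt-Rnr2 were 0.434, 0.464, 0.553, 0.618 and 0.658 in the same hearts, and 0.365 to 0.425 in Pde2A+/+ hearts. Neither ratio overlapped between genotypes, and hearts D and 15 were farthest from the Pde2A+/+ hearts in both. Counts of mt-Nd1 per count of mt-Rnr2 did overlap, at 1.69 to 3.43 in Pde2A-/- hearts and 2.79 to 4.05 in Pde2A+/+ hearts. The ratios were chosen after the values were seen and were not tested, and overlap in other pairs of genes was not counted. Over the 11 hearts the log2 CPM of mt-Nd1 and mt-Nd2 had a Pearson correlation of 0.996, and those of mt-Nd1 and mt-Rnr1 of -0.72, a description of hearts that share genotype and library scaling.

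The tRNA genes called lower in the Pde2A-/- hearts were mt-Tp and mt-Tt. On its own strand, mt-Tp had 42, 46, 64, 31 and 22 counts in hearts A, B, 14, D and 15, and 76 to 184 counts in Pde2A+/+ hearts. In CPM these were 1.10, 1.09, 1.59, 0.860 and 0.606 against 2.08 to 4.57 (median 2.83). No Pde2A-/- heart reached the lowest Pde2A+/+ heart, and the level was 1.05 ± 0.364 CPM (SD, n = 5) against 3.17 ± 1.10 CPM (SD, n = 6). Its log2 fold change was -1.59 ± 0.28 (SE, adjusted p = 0.00290), and the call held with each heart left out in turn. For mt-Tt the own-strand counts were 4, 6, 4, 0 and 1, against 4 to 21 in Pde2A+/+ hearts. Hearts A, B and 14 were at or above the lowest Pde2A+/+ heart, so the genotypes overlapped, and the log2 fold change was -2.05 ± 0.57 (SE, adjusted p = 0.0309), a call lost without heart 14, D or 15 of the Pde2A-/- group or heart 8 or H of the Pde2A+/+ group. DESeq2 gave mt-Tt no adjusted p, and it did not pass the filterByExpr minimum, so neither made this call.

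The other 8 tested tRNA genes did not pass. The gene with most counts per kilobase among them, mt-Tw for tryptophan, had 4.02, 4.06, 3.61, 3.08 and 1.41 CPM in Pde2A-/- hearts and 2.80 to 5.39 CPM (median 3.76) in Pde2A+/+ hearts, which overlapped widely. The remaining log2 fold changes ranged from -1.56 ± 0.72 for mt-Ta (alanine, adjusted p = 0.164) and -1.54 ± 0.57 for mt-Tq (glutamine, adjusted p = 0.0866) to 1.39 ± 0.87 for mt-Tc (cysteine, 17 counts over all hearts, adjusted p = 0.307). In Pde2A-/- hearts mt-Tq had 1 to 7 own-strand counts, and in Pde2A+/+ hearts 2 to 26.

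Of the stranded reads summed over minus-strand mitochondrial genes, 91.0% to 94.0% lay on the opposite strand, that is, on plus-strand RNA, compared with 1.56% to 2.62% on plus-strand mitochondrial genes and 4.10% to 4.90% on nuclear genes. These sums hide exceptions: on the plus-strand gene mt-Tt 70.4% to 100% of reads lay on the opposite strand, and on the minus-strand gene mt-Tp 26.5% to 60.0%. The minus-strand mRNA mt-Nd6 had 1686 to 3681 counts on its own strand per heart and 22091 to 49331 on the opposite one. The glutamate gene mt-Te, next to mt-Nd6, had 6 to 27 counts on its own strand and 511 to 3154 on the opposite one. The genotypes overlapped in the strand shares of both groups of genes.

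In edgeR's test of the opposite-strand counts, which covered 20 members and 16786 genes, 2 members were lower and 1 higher in Pde2A-/- hearts. Over all genes, 0.268% were called lower and 1.44% higher. The members were mt-Tt (-2.25 ± 0.30, SE, adjusted p = 2.84e-07) and mt-Ti (-2.61 ± 0.64, SE, adjusted p = 0.0139), both lower, and mt-Tn for asparagine (1.28 ± 0.32, SE, adjusted p = 0.0173), which was higher. Opposite-strand counts of mt-Tt were 16, 24, 16, 5 and 4 in hearts A, B, 14, D and 15 and 34 to 99 in Pde2A+/+ hearts, with no overlap. Those of mt-Ti were 4, 1, 0, 1 and 0 against 1 to 18, and those of mt-Tn were 7, 32, 21, 21 and 14 against 4 to 14, both with overlap. The share of all genes without overlap was not counted for the opposite strand. The mt-Ti call was lost with DESeq2 (adjusted p = 0.0572) and without heart 14 or 15 of the Pde2A-/- group or heart 11 of the Pde2A+/+ group. The mt-Tn call was lost with DESeq2 (adjusted p = 0.0902) and without heart B of the Pde2A-/- group or heart E of the Pde2A+/+ group.

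Opposite-strand reads of mt-Tt and own-strand reads of mt-Tp both lie on minus-strand RNA, and the counts overlap in part across the boundary of the genes whose sequences are given above. When strand was ignored, mt-Tp had 1016 counts over the 11 hearts, 527 fewer than the 940 own-strand and 603 opposite-strand counts combined, and mt-Tt, with 513 counts on both strands, was left with 1. In each Pde2A-/- heart the number lost from mt-Tp equalled the number on mt-Tt, at 20, 30, 20, 5 and 5 reads. As mt-Tt was left with 1 count, all or all but 1 of its 422 opposite-strand reads also touched mt-Tp. These are among the 940 own-strand reads of mt-Tp, and the calls on them are not independent. With all 422 taken as shared, 518 own-strand reads of mt-Tp remain beyond those counted on mt-Tt, at 26, 22, 48, 26 and 18 reads in hearts A, B, 14, D and 15 and 42 to 85 in Pde2A+/+ hearts. In these remaining reads heart 14 lay inside the Pde2A+/+ range and the other 4 Pde2A-/- hearts below it.

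The genotype difference in mt-Tp was seen on the minus strand. Its opposite-strand counts were 63, 67, 57, 43 and 24 in hearts A, B, 14, D and 15 and 50 to 79 in Pde2A+/+ hearts, which overlapped, with a log2 fold change of -0.24 ± 0.21 (SE, adjusted p = 0.742) in the opposite-strand test. The opposite strand held 60.0%, 59.3%, 47.1%, 58.1% and 52.2% of the reads over mt-Tp in the Pde2A-/- hearts and 26.5% to 42.0% in the Pde2A+/+ hearts, with no overlap. How many of all genes lacked overlap in this strand share was not counted. In edgeR's test of the genotype by strand term over 15318 genes, the log2 ratio of opposite-strand to own-strand counts was higher in Pde2A-/- hearts by 1.35 ± 0.28 (SE, adjusted p = 0.0229). Over all genes, 0.118% were called higher and 0.202% lower. The call was lost with limma on log ratios (1.32 ± 0.35, SE, adjusted p = 0.392) and without heart A or D of the Pde2A-/- group or heart 11, 8 or H of the Pde2A+/+ group. With strand ignored, mt-Tp had a log2 fold change of -0.49 ± 0.20 (SE, adjusted p = 0.115), in a test that called 5.43% of all genes lower and 8.82% higher.

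**Figure D4:**
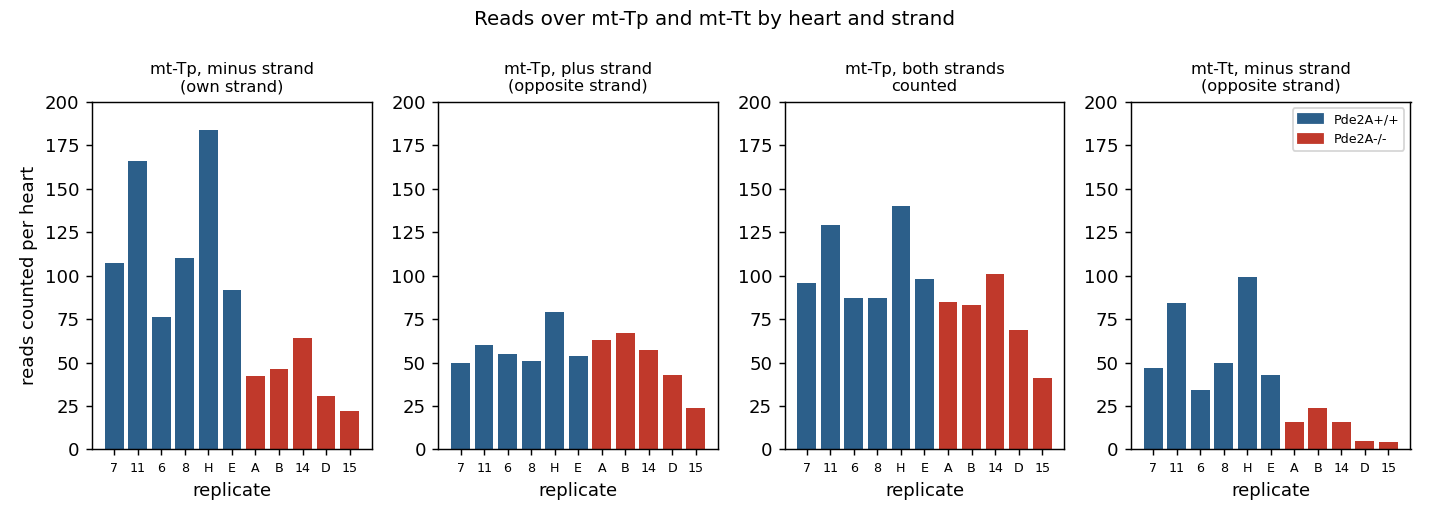
Reads counted per heart over mt-Tp on the minus strand, on the plus strand and with strand ignored, and over mt-Tt on the minus strand (blue, Pde2A+/+; red, Pde2A-/-). On the minus strand the Pde2A-/- hearts have 22 to 64 reads over mt-Tp and the Pde2A+/+ hearts 76 to 184, while the plus-strand counts overlap.

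The second member called in the strand test was mt-Ti, whose opposite-strand share was 2.38%, 0.592%, 0%, 0.645% and 0% in the Pde2A-/- hearts and 2.44% to 10.1% in the Pde2A+/+ hearts. The share of 0% rests on 0 of 164 reads in heart 14, which allows up to 1.83%, and 0 of 83 reads in heart 15, which allows up to 3.61% and so reaches into the Pde2A+/+ range (counting error only). The log2 ratio was lower by 2.78 ± 0.61 (SE, adjusted p = 0.0350), and the call was lost with limma (adjusted p = 0.0922), with the naming style of the replicates as a covariate (adjusted p = 0.0625) and without any of hearts B, 14, D and 15 of the Pde2A-/- group or hearts 7, 11, 8 and H of the Pde2A+/+ group. With strand ignored, mt-Ti and its overlapping neighbour mt-Tq kept 3 and 2 counts over all hearts. Opposite-strand reads of mt-Ti and own-strand reads of mt-Tq both lie on minus-strand RNA. Nearly all of the 51 opposite-strand reads of mt-Ti thus also touched mt-Tq and are among its 86 own-strand reads. The values of these genes are not independent. The opposite-strand share of mt-Tq was 96.7% to 99.0% in Pde2A-/- hearts and 87.9% to 96.4% in Pde2A+/+ hearts. In the same edgeR strand test mt-Tq did not pass (1.72 ± 0.45, SE, adjusted p = 0.139).

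The members whose CPM followed mt-Tp most closely over the 11 hearts were mt-Nd2 and mt-Nd4 (Spearman's rho 0.891 each) and mt-Nd1 (0.845). Outside the mitochondrial chromosome they were Smug1 (0.964), which encodes a uracil-DNA glycosylase, Znhit3 (0.955) and Gm10221 (0.936), picked as the highest of all genes tested.

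Nuclear genes that serve the mitochondrial genome are given by list, to be read against the 5.67% of all genes called lower and the 8.93% called higher. Of 18 genes of mitochondrial DNA upkeep and transcription, 2 were lower and 1 higher, with Polrmt, the mitochondrial RNA polymerase, at -0.25 ± 0.07 (SE, adjusted p = 0.0408), Ssbp1, the single-stranded DNA-binding protein, at -0.27 ± 0.08 (adjusted p = 0.0432) and Top1mt, a topoisomerase, at 0.24 ± 0.07 on the log2 scale (adjusted p = 0.0454). Tfam, the packaging and transcription factor, had -0.11 ± 0.04 (adjusted p = 0.0879) and did not pass. The median of the list was -0.01, against -0.02 over all genes.

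Of 20 genes of mitochondrial RNA processing and stability, 3 were lower, namely Fastkd5 (-0.44 ± 0.12, SE), Fastkd2 (-0.25 ± 0.06) and Elac2 (-0.24 ± 0.07), which encodes the enzyme that cuts tRNA precursors at their 3′ ends. Lrpprc, which stabilises mitochondrial mRNAs, had -0.01 ± 0.07 (adjusted p = 0.942). Of 20 genes that modify mitochondrial tRNA and rRNA, 2 were lower, Mrm3 (-0.38 ± 0.08) and Trub2 (-0.36 ± 0.11). The summed level of these 20 genes was 341 to 371 CPM in Pde2A-/- hearts and 372 to 408 CPM in Pde2A+/+ hearts, without overlap but nearly touching. The sums of the other lists of nuclear mitochondrial genes given here overlapped between the genotypes, and no sum was tested.

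Of 22 mitochondrial aminoacyl-tRNA synthetase genes and partners, 6 were lower, led by the glutamate enzyme Ears2 (-0.63 ± 0.12, SE), Qrsl1 (-0.34 ± 0.11) and the tyrosine enzyme Yars2 (-0.28 ± 0.06). Of 53 nuclear genes for respiratory chain subunits, 11 were lower, led by cytochrome c, Cycs (-0.40 ± 0.09), the complex I subunit Ndufa5 (-0.34 ± 0.06) and the ATP synthase gene Atp5g1 (-0.29 ± 0.07). The medians were -0.10 and -0.13. Of 9 regulators of mitochondrial number, 2 were higher, the coactivators Ppargc1a (0.62 ± 0.19, adjusted p = 0.0495) and Ppargc1b (0.54 ± 0.17, adjusted p = 0.0459).

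Markers of other cell types also differed between the genotypes, to be read against the 5.67% of all genes called lower and the 8.93% called higher. All 8 macrophage markers were higher in Pde2A-/- hearts, and their sum was 192, 218, 257, 253 and 264 CPM in hearts A, B, 14, D and 15, against 97.4 to 155 CPM in Pde2A+/+ hearts. Endothelial markers summed to 1409 to 1528 CPM and 1111 to 1329 CPM, with 4 of 8 higher, and 3 of 8 fibroblast markers were higher. Of 12 cardiomyocyte markers, 3 were lower and 1 higher. In hearts A and B, whose mitochondrial mRNA levels lay nearest to those of Pde2A+/+ hearts, the macrophage sum was the lowest of the Pde2A-/- group and the fibroblast sum was 7242 and 7097 CPM, against 9082 to 11494 CPM in hearts 14, D and 15 and 5990 to 11079 CPM in Pde2A+/+ hearts. The cardiomyocyte sum was 32803, 35322, 34516, 32859 and 37920 CPM in hearts A, B, 14, D and 15. The endothelial sum was 1450, 1528, 1409, 1466 and 1482 CPM in the same hearts. Neither of these sums set hearts A and B apart from hearts 14, D and 15. The part of cell composition in the mitochondrial differences was not tested.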

How the data were processed

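Stranded mRNA libraries were made from total RNA of single embryonic hearts and sequenced single-end on a NextSeq 500. The authors mapped reads with STAR to GRCm38/mm10 and deposited raw read counts per gene in 3 columns: both strands, the opposite strand and the gene's own strand; tool versions and read length are not given in the sources used here. The column of higher counts, the fourth, was taken as the own strand. Total counts of 35865537 to 42835382 per library leave low-count tRNA genes limited by counting error.

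The whole table was tested, keeping genes whose counts summed to 10 or more, with edgeR 4.0.16 (TMM, quasi-likelihood test, Benjamini-Hochberg adjustment, threshold 0.05) in R 4.3.3. The same test was run on opposite-strand counts and on the genotype by strand term with heart as a block. CPM were scaled by TMM. The study's methods used DESeq2, and DESeq2 1.42.0 and limma 3.58.1 were among the alternatives, with other scalings, filters, covariates and each heart left out. The fits were tested on simulated data. At a simulated log2 change of 1, the own-strand test recovered 196 of 200 changed genes, with 4 wrong calls. The strand test recovered 106 of 190, with 3 wrong calls, and so missed many changes of that size. Where the files name several genes alike, the one of highest count was used. Windows of 50 and 75 bases of each gene were matched to all other GENCODE M21 transcripts; no genome was searched. The members and gene lists were chosen with earlier results of these data known. Values of every heart were given for genes passing the own-strand or strand test and the highest gene per class, and pathway genes named were up to 3 largest that passed, plus Tfam, Polrmt, Lrpprc and Ppargc1a. Nothing in the labels says that hearts came from separate litters.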

Additional observations from a re-analysis of the deposited data

Results flagged for a closer look

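The sets of values searched for outlying hearts are not independent, since they hold both strands of the same genes and sums over genes. In groups of 5 or 6 hearts, 12 of 92 sets of values held 1 heart that stood far from the others, where chance flags about 1 in 20 of independent sets. Of these, 7 were high values of Pde2A+/+ heart H: mt-Co1 at 10748 CPM against 9190.3 to 9674 in the other 5 hearts, mt-Nd5 at 4701 against 3784 to 4126, mt-Cytb at 8074 against 6787 to 7104, opposite-strand counts of mt-Nd4 at 41.5 against 29.0 to 33.5 and of mt-Nd6 at 1226 against 956 to 1016 CPM, the mRNA share at 3.39% against 2.93% to 3.05%, and the whole mitochondrial share at 3.60% against 3.11% to 3.22%.

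Pde2A-/- heart 15 was low for mt-Ti at 2.29 CPM against 3.97 to 4.28 in the other 4 hearts, for opposite-strand mt-Tq at 2.84 against 4.83 to 5.30 CPM and for the rRNA share at 0.147% against 0.178% to 0.189%. Pde2A-/- heart A was high for opposite-strand mt-Ti at 0.104 CPM against 0 to 0.0278, which are 4 reads against 0 or 1. Pde2A+/+ heart E was low for opposite-strand mt-Nd2 at 27.2 CPM against 45.3 to 47.0.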

How the results depend on the processing

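The difference in mitochondrial share kept its sign and moved by less than the pooled SD between hearts (0.409 percentage points) under all 6 alternatives run (-0.81 to -0.71 percentage points) and without each heart (-0.95 to -0.63). With a fold change of at least 2, 2 members were lower on their own strand instead of 6. With DESeq2, filterByExpr or both strands counted, 1 member was higher instead of 0, mt-Rnr1 in the first and second and mt-Tn in the last. With DESeq2 or filterByExpr, 5 were lower, without mt-Tt. Without 1 heart, 1 to 7 members were lower and 0 to 1 higher. On the opposite strand, scaling by own-strand library sizes left 1 member lower and 0 higher, and DESeq2 left 0 higher; without 1 heart, 1 to 6 were lower and 0 to 2 higher. In the strand test, limma left 0 lower and 0 higher, the naming-style covariate left 0 lower, and scaling each strand separately gave 2 higher; without 1 heart, 0 to 1 were lower and 0 to 1 higher. With both strands counted, 2 log2 fold changes reversed, mt-Tn to 1.26 and mt-Tc to -0.087, as this column adds their far more numerous opposite-strand reads. In the strand test mt-Tt ranged from -0.39 to 0.0015 without 1 heart, positive without Pde2A+/+ heart 11. No paired analysis was possible because the genotypes share no replicate names.

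Low counts limit mt-Tt, mt-Ti, mt-Tq, mt-Tn and mt-Tc, and the 6 mRNA genes from mt-Co2 to mt-Nd4l could not be compared from these columns.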
